A study of Homo sapiens with 4 samples.

Results

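The genes of cholesterol and fatty acid synthesis were followed as a list of 36 named enzymes and regulators, matched by gene symbol to the probe sets of the arrays. For 34 of the 36 the annotation held a probe set with that gene as its single symbol, 1 probe set for each, out of 18377 genes on the array with such a probe set. All 34 were bright enough to be among the 12740 genes tested. HSD17B7 shares its probe set with the pseudogene HSD17B7P2 and was not used, and FDFT1 is not analysed here. Membership rests on gene function and no measured value enters the rule, but the list was drawn up with earlier results of these data known.

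Total RNA came from the lung adenocarcinoma lines A549 and H441, both established human cell lines, and was measured on 4 Affymetrix whole-transcript arrays. The groups were A549 with siTAZ, A549 with siNTC, H441 with siTAZ and H441 with siNTC, each collected 48 h after lipid-mediated siRNA transfection and each hybridised to 1 array. Both members of a pair were thus transfected in this way, and they differ in the siRNA. It targets TAZ (gene WWTR1), a co-activator of the Hippo pathway, or is the control siRNA, siNTC. The labels give no siRNA sequence. Each line comes from a single tumour, and the number of arrays limits the precision of every value. Signals are log2 values, and differences are siTAZ minus siNTC on that scale unless stated otherwise.

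WWTR1 was 7.64 with siTAZ and 10.04 with siNTC in A549, and 7.47 with siTAZ and 9.61 with siNTC in H441, and it fell over both lines (mean -2.27 ± 0.12, limma SE, limma adjusted p = 1.5e-11). All 5 epithelial markers looked up were at or above the table median of 6.13 on every array. Of 5 alveolar type II markers, 4 reached it on both H441 arrays, and in A549 0 reached it with siTAZ and 1, SFTPC, with siNTC. The mean of the 5 type II markers was 8.90 with siTAZ and 8.52 with siNTC in H441, and 5.55 with either siRNA in A549. Of them, SFTPB had a difference of 0.67, SLC34A2 of 0.59, NKX2-1 of 0.43 and NAPSA of 0.30 in H441. SFTPC went the other way, with -0.13 in H441 and -0.38 in A549. In A549 the other 4 lay between -0.01 and 0.17. None of the 5 passed over both lines (limma adjusted p = 0.089, 0.15, 0.52, 0.50 and 0.36 in the order named). The mean of the epithelial markers was 12.77 with siTAZ and 12.91 with siNTC in H441, and 10.11 with siTAZ and 10.24 with siNTC in A549. Of 9 markers of fibroblasts, leukocytes and endothelium, 5 (PTPRC, CD3E, PECAM1, CDH5 and VWF) were below the table median on all 4 arrays. The fibroblast marker COL1A1 was above it on all 4 arrays (7.31 to 8.71). CD14 was above it on both A549 arrays, and the fibroblast markers LUM and COL3A1 on both H441 arrays. The mean of these 9 was 5.77 with siTAZ and 5.65 with siNTC in A549, and 5.98 with siTAZ and 5.93 with siNTC in H441, and the part of these marker shifts in the results below was not tested.

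Cells build both cholesterol and fatty acids from cytosolic acetyl-CoA. The mevalonate pathway condenses it into isoprenoid units that are joined into squalene and folded into sterols, while carboxylation and the fatty acid synthase lead to long-chain fatty acids that are then elongated and desaturated. Transcription of most of these enzymes is driven by the SREBP factors, which the escort protein SCAP carries out of the endoplasmic reticulum when sterols are low and the INSIG proteins hold back when sterols are plentiful. In the lung, alveolar type II cells use the fatty acid branch to make the phospholipids of surfactant.

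After siTAZ, ACLY and ELOVL5 rose over both lines, and the other 32 measured genes did not pass the test. These 2 calls, both higher, stand against 1.19% of all tested genes called higher, 1.29% called lower and 2.47% called in either direction. An unadjusted limma p under 0.05 was reached by 5 of the 34 (ACLY, AACS, LSS, ELOVL5 and INSIG1, all higher). Of all 12740 tested genes 13.2% reached it in either direction, and 859 reached it with a positive mean difference. In either direction, 5 members reached it after median centring, 8 after cyclic loess and 10 with an intensity trend. All tested genes that did were 1656 of 12674, 1493 of 12669 and 1829 of 12740 under these settings. Small differences in one direction were frequent: 29 of 34 genes were higher in A549, against 50.7% of all tested genes, and 24 of 34 were higher in H441, against 51.9%. In 20 of 34 the difference was above 0 in both lines (30.3% of all tested genes), and in 1, ACSS2, it was below 0 in both (27.2%). The median difference of the 34 was 0.21 in A549 and 0.07 in H441, and over all tested genes it was 0.0037 in A549 and 0.01 in H441. In such bulk RNA, fewer cells expressing a gene and less of its RNA per cell cannot be told apart.

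The number of these genes higher in H441, and their median, depended on how the arrays were scaled. Median centring lowers every H441 difference alike, those of the list and of all tested genes. With each array centred on its median, 16 of 34 genes were higher in H441 (34.3% of all tested genes) and their median was -0.01, while the median of all tested genes was -0.08 there. After quantile normalization 27 of 34 were higher there (53.1% of all tested genes), with a median of 0.11 against 0.014 over all tested genes. After cyclic loess it was 28 of 34 (51.3%), with a median of 0.12 against 0.0059. In A549 the count stayed between 28 and 30 under the same scalings, against 48.8% to 52.8% of all tested genes. Higher in both lines under every scaling were 13 of the 34 genes. The same count was not made over all tested genes, so it has no background share.

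**Figure D1:**
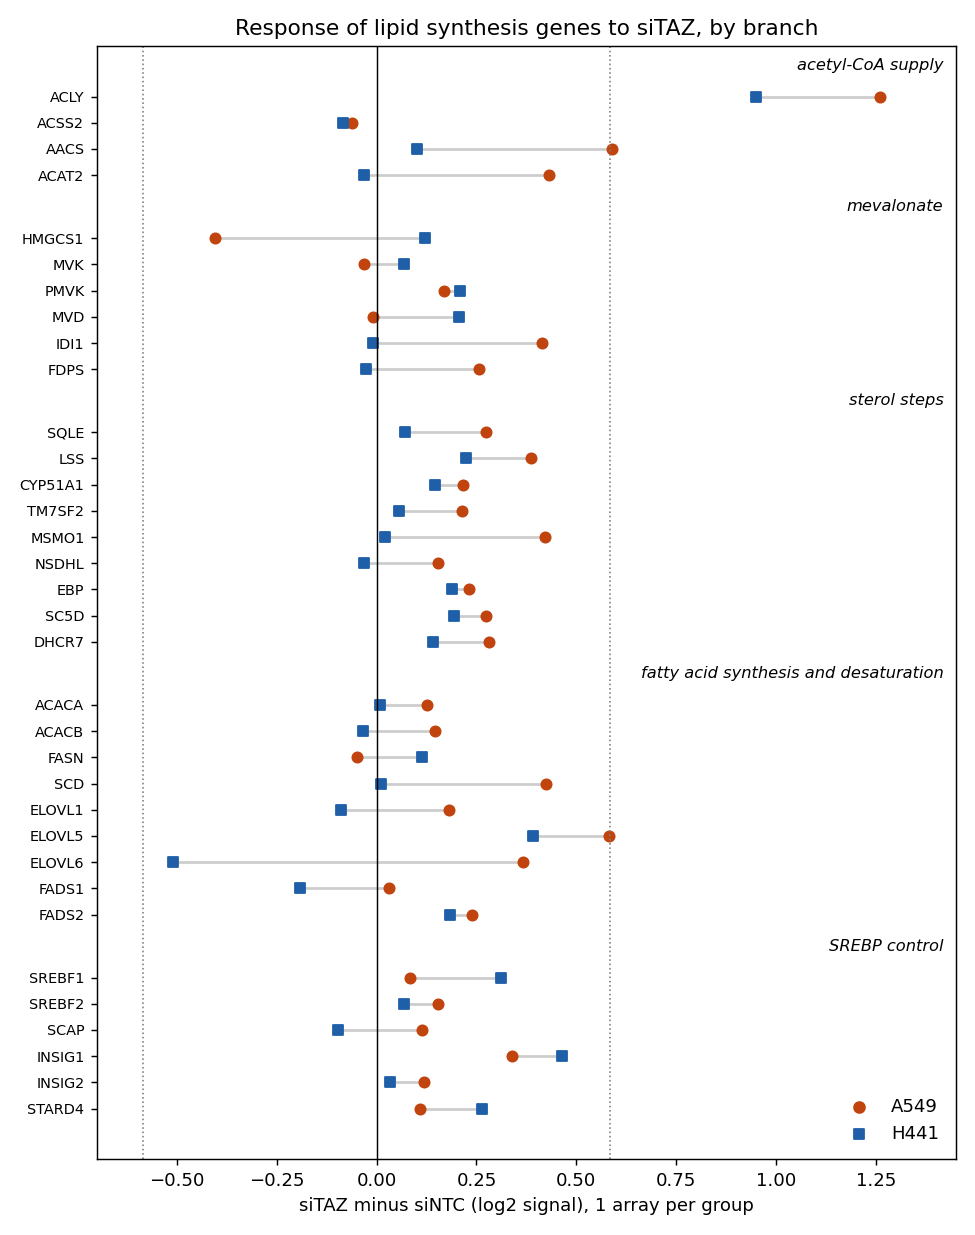
Difference between siTAZ and siNTC (x axis, log2 signal) for the 34 measured genes, grouped by branch. Circles are A549 and squares H441, 1 array per group. Dotted lines mark 1.5-fold. ACLY lies at 1.26 and 0.95, while the 9 sterol-step genes lie between -0.03 and 0.42.

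The stretches upstream of 4 of these genes are shown. ACLY and ELOVL5 carried the calls, and INSIG1 had the next smallest adjusted p. SREBF2 was the only 1 of the 31 genes searched with a match to TCACNCCAC, the letters used here for the sterol regulatory element. Other forms of that element were not searched. Each stretch is the 250 bases before a transcript start, read on the strand of the gene from the RefSeq promoter table (build GRCh38.p14). ACLY lies at chr17:41919023-41919272 on the minus strand, ELOVL5 at chr6:53348951-53349200 on the minus strand, INSIG1 at chr7:155297628-155297877 on the plus strand and SREBF2 at chr22:41832855-41833104 on the plus strand. Capitals mark CCAAT or its reverse complement, the letters bound by the factor NF-Y, in the first 3, and the match to TCACNCCAC in SREBF2. ACLY has 2 windows in the table, of which the more upstream one is given.
ACLY: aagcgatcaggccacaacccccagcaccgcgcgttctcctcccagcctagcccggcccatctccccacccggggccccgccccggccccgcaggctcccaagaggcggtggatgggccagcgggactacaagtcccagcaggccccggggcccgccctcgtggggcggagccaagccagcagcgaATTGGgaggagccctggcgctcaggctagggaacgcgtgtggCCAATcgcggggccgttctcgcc
ELOVL5: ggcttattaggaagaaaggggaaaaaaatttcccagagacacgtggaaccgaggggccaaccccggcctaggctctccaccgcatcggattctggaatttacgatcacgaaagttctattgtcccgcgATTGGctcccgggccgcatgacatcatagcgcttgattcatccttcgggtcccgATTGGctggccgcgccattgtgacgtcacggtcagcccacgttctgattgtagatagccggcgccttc
INSIG1: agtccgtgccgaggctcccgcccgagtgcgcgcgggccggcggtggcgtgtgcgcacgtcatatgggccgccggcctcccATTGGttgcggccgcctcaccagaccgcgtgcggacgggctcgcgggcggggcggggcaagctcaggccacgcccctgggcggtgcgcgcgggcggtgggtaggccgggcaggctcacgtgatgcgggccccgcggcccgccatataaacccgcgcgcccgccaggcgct
SREBF2: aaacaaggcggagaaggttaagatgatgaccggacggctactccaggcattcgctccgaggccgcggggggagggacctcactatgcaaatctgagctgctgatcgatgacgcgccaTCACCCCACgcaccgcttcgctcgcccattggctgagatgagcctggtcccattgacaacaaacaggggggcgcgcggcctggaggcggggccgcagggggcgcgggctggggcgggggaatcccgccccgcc

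Of the 34 genes, 31 had at least 1 such window, and ACAT2, SQLE and FASN had none and were not searched. CCAAT, on either strand, was present upstream of 22 of the 31 genes (71.0%), against 40.6% of the 10202 tested genes with a window and 11240 of all 35116 windows. The GC box GGGCGG was present for 29 of 31 (93.5%), against 74.2% of tested genes and 42.6% of all windows. The 2 genes without it were ELOVL5 and NSDHL. TCACNCCAC was present for 1 of 31 (3.23%), against 1.16% of tested genes and 0.883% of all windows. GGAATG, the letters bound by the TEAD partners of TAZ, was present for 4 of 31 (EBP, FADS2, PMVK and STARD4; 12.9%), against 12.9% of tested genes and 11.9% of all windows. Both strands were searched for each motif, matches of different motifs may overlap, and a match describes letters and not a bound site.

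In the branch that supplies acetyl-CoA, ACLY was far above the other members in its response. ACLY, which splits exported citrate into acetyl-CoA and oxaloacetate, had 12.15 with siTAZ and 10.89 with siNTC in A549, and 11.12 with siTAZ and 10.17 with siNTC in H441. It was 2.40-fold higher in A549 and 1.93-fold higher in H441, and its mean difference was 1.11 ± 0.12 (limma SE, limma adjusted p = 1.2e-05). Both siTAZ values lay above both siNTC values, across the lines as well as within them. The call held under every alternative with cell line in the fit, where the limma adjusted p ranged up to 0.023.

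AACS, which activates the ketone body acetoacetate, had 8.73 with siTAZ and 8.14 with siNTC in A549, and 8.39 with siTAZ and 8.29 with siNTC in H441. ACAT2, the cytosolic thiolase that joins acetyl-CoA units at the entry to the mevalonate pathway, had 9.36 with siTAZ and 8.93 with siNTC in A549, and 8.65 with siTAZ and 8.68 with siNTC in H441. In both genes the A549 arrays stood further apart than the H441 arrays, and neither gene passed over both lines (limma adjusted p = 0.18 for AACS and 0.55 for ACAT2). ACSS2, which makes acetyl-CoA from acetate and so bypasses citrate, had -0.06 in A549 and -0.08 in H441 (limma adjusted p = 0.87). ACLY and AACS were the 2 of the 34 genes at least 1.5-fold higher in A549, against 1.59% of all tested genes, and ACLY the only one in H441, against 0.447%. At least 1.5-fold lower were 0 of 34 in either line, against 0.981% in A549 and 0.911% in H441. ELOVL5, at 0.58 in A549, was just short of 1.5-fold, and AACS, at 0.59, just past it.

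The 6 mevalonate genes did not move together. HMGCS1, the cytosolic HMG-CoA synthase that commits carbon to this pathway, had 10.32 with siTAZ and 10.72 with siNTC in A549, and 10.05 with siTAZ and 9.93 with siNTC in H441. It was the gene with the lowest difference of the 34 in A549, -0.40, and its H441 difference was 0.12. The differences of the kinase gene MVK were -0.03 (A549) and 0.07 (H441), and those of PMVK, the next kinase, 0.17 (A549) and 0.21 (H441). MVD, the decarboxylase that yields isopentenyl diphosphate, had -0.01 in A549 and 0.21 in H441.

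IDI1, the isomerase of isopentenyl diphosphate, had 9.98 with siTAZ and 9.56 with siNTC in A549, and 9.38 with siTAZ and 9.39 with siNTC in H441. For FDPS, the farnesyl diphosphate synthase, the difference was 0.26 (A549) and -0.03 (H441). As deposited, 3 of the 6 were higher in A549 and 4 of the 6 in H441, and PMVK was higher in both lines under each of the 4 scalings. The sign turned with the scaling for MVK, IDI1 and FDPS in H441 and for MVD in A549. The probe set used for FDPS is specific in the annotation, but 2 others are shared with a pseudogene, so its value may include related transcripts. None of the 6 passed the limma test, with adjusted p between 0.53 and 0.97. After median centring MVK had a mean of -0.03, against 0.02 as deposited.

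Among the sterol steps, 9 of 9 measured genes were higher in A549 and 8 of 9 in H441, with medians of 0.27 (A549) and 0.14 (H441) and a range of 0.15 to 0.42 in A549. LSS, the cyclase that folds epoxidised squalene into lanosterol, had 8.69 with siTAZ and 8.30 with siNTC in A549, and 8.85 with siTAZ and 8.63 with siNTC in H441. Its mean difference of 0.31 ± 0.12 was the largest of the branch (limma SE, limma adjusted p = 0.21). MSMO1, which oxidises sterol methyl groups, had 10.10 with siTAZ and 9.68 with siNTC in A549, and 10.86 with siTAZ and 10.84 with siNTC in H441.

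SQLE, the squalene epoxidase, differed by 0.27 (A549) and 0.07 (H441), and CYP51A1, the lanosterol demethylase, by 0.22 (A549) and 0.15 (H441). The late-step genes EBP (a sterol isomerase), SC5D (a sterol desaturase) and DHCR7 (the reductase that ends one arm of the pathway) had 0.23, 0.27 and 0.28 in A549, and 0.19, 0.19 and 0.14 in H441. TM7SF2, a sterol reductase gene, had 0.21 (A549) and 0.06 (H441). NSDHL, a dehydrogenase acting with MSMO1, had 0.15 in A549 and -0.03 in H441 and was the member below 0 there. All 9 kept a positive A549 difference under each of the 4 scalings, whereas in H441 the sign of SQLE, TM7SF2, MSMO1 and NSDHL turned with the scaling. Of the 9 genes 0 passed the test, with limma adjusted p from 0.21 to 0.89.

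**Figure D2:**
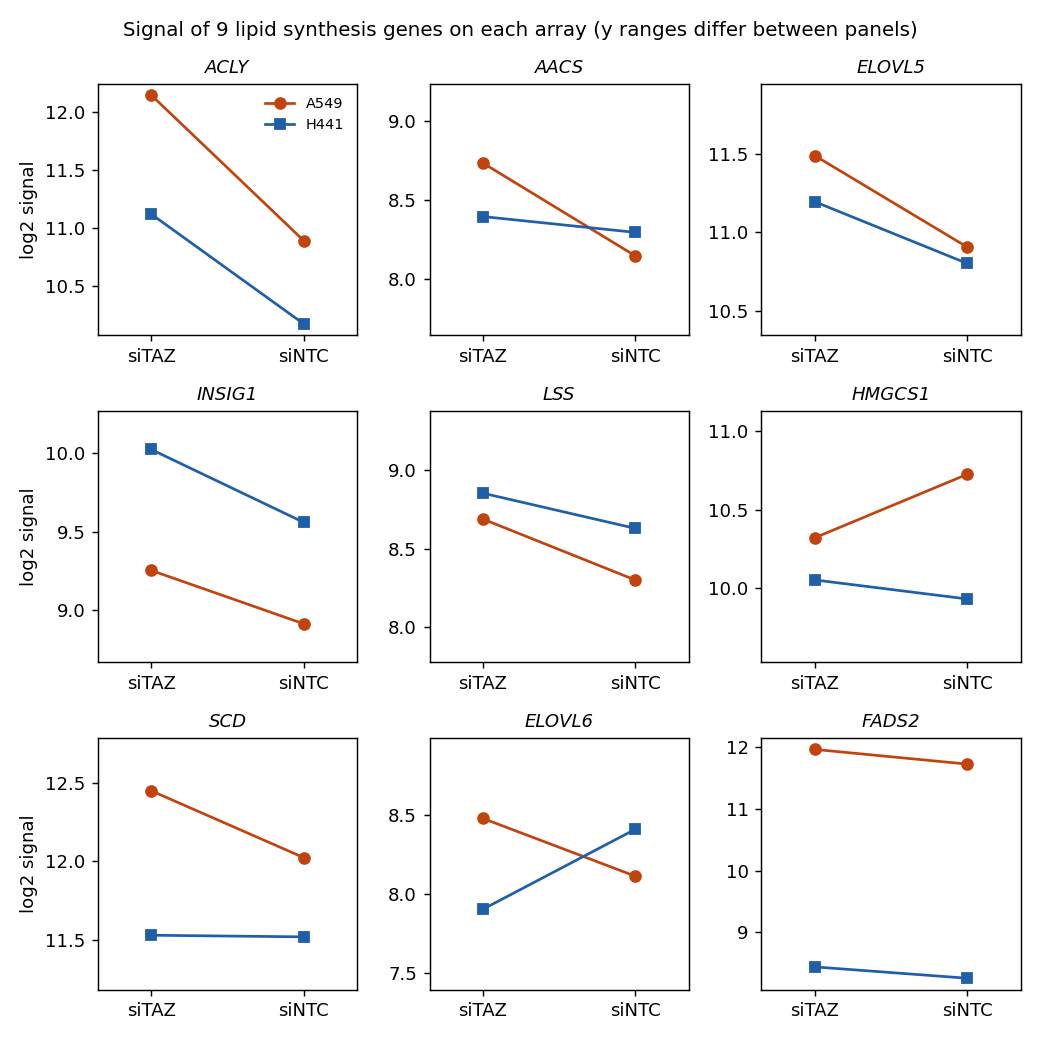
Log2 signal (y axis) of 9 genes on each array, with siTAZ left and siNTC right. Circles are A549 and squares H441, each point is 1 array and y ranges differ between panels. ACLY slopes steeply in both lines, AACS (0.59) and ELOVL5 (0.58) less so in A549, and ELOVL6 in opposite directions.

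In fatty acid synthesis and desaturation, ELOVL5 rose and the other 8 genes did not pass. ELOVL5, which elongates polyunsaturated fatty acids, had 11.49 with siTAZ and 10.91 with siNTC in A549, and 11.20 with siTAZ and 10.80 with siNTC in H441. Its mean difference was 0.49 ± 0.12 (limma SE, limma adjusted p = 0.025). The siTAZ values of both lines lay above the siNTC values of both. The call was lost after quantile normalization (limma adjusted p = 0.053), after cyclic loess (0.10) and without the filter on dim genes (0.094), with a difference of 0.49 to 0.53 in each.

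ELOVL6, the elongase that extends palmitate, had 8.48 with siTAZ and 8.11 with siNTC in A549, and 7.90 with siTAZ and 8.41 with siNTC in H441. Its differences of 0.37 (A549) and -0.51 (H441) were the widest apart of the list, and both signs held under each of the 4 scalings. Whether the lines differ in this response could not be tested with 1 array per group. ELOVL1, which extends saturated and monounsaturated very long chains, had 0.18 in A549 and -0.09 in H441.

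SCD, the desaturase that makes oleate from stearate, had 12.45 with siTAZ and 12.02 with siNTC in A549, and 11.53 with siTAZ and 11.52 with siNTC in H441. The core synthetic enzymes differed little: FASN, the fatty acid synthase, had -0.05 in A549 and 0.11 in H441. For the acetyl-CoA carboxylases, ACACA had 0.13 (A549) and 0.01 (H441), and ACACB, near the table median on all 4 arrays, 0.15 (A549) and -0.03 (H441). Of the desaturases for polyunsaturated chains, FADS2 had 0.24 in A549 and 0.18 in H441, and FADS1 0.03 (A549) and -0.19 (H441). The limma adjusted p of these 8 genes lay between 0.46 and 0.95.

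Among the 6 genes of SREBP control, all were higher in A549 and 5 in H441, and 0 passed the test. INSIG1, itself a target of the SREBP factors and one of their retention proteins, had 9.25 with siTAZ and 8.91 with siNTC in A549, and 10.02 with siTAZ and 9.56 with siNTC in H441. Its mean difference was 0.40 ± 0.12 (limma SE, limma adjusted p = 0.074), and it passed with the stricter filter on dim genes (adjusted p = 0.045) and with an intensity trend in the prior (0.0092). In H441, INSIG1 had the highest positive difference of the list after ACLY, and ELOVL6, at -0.51, differed by more in size.

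SREBF1, which encodes the factor tied mainly to fatty acid genes, had 0.08 in A549 and 0.31 in H441, and STARD4, a sterol transfer protein that the SREBP factors induce, 0.11 (A549) and 0.26 (H441). INSIG1, SREBF1 and STARD4 were the 3 genes of this group with the larger difference in H441. SREBF2, whose product acts mainly on cholesterol genes, had 0.15 (A549) and 0.07 (H441). INSIG2, another retention protein, had 0.12 (A549) and 0.03 (H441), and SCAP 0.11 (A549) and -0.10 (H441). For these 5 genes other than INSIG1 the limma adjusted p was between 0.52 and 0.99.

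Across the list the difference was larger in A549 than in H441 for 26 of 34 genes, against 51.8% of all tested genes. It was 27 of 34 after median centring, against 64.4% of tested genes, and 24 of 34 after cyclic loess, against 53.0%. By branch these were 9 of 9 sterol-step genes, 8 of 9 fatty acid genes and 4 of 4 acetyl-CoA genes, but 2 of 6 mevalonate and 3 of 6 SREBP control genes. The differences of the 34 genes in the 2 lines correlated at Pearson r = 0.48, or 0.06 without ACLY, and Spearman rho = 0.17, or 0.09 without ACLY. Over all 12740 tested genes r was 0.32 and rho 0.25. These are descriptions across genes, which are not independent replicates.

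**Figure D3:**
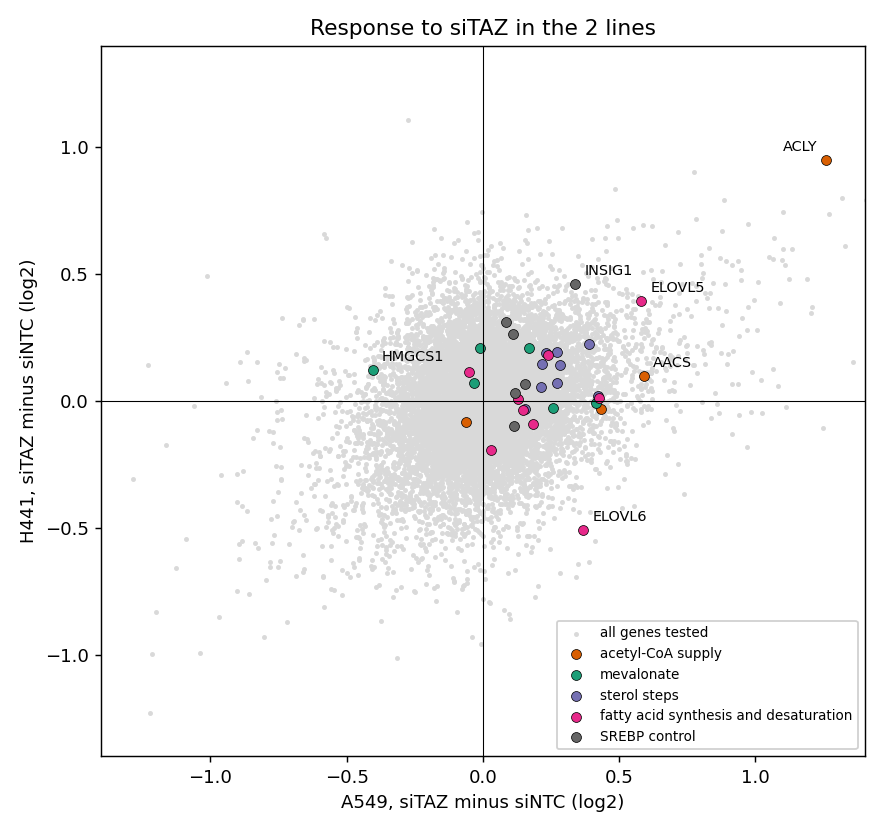
Difference between siTAZ and siNTC in A549 (x axis) and H441 (y axis), both in log2 signal. Grey points are all genes tested, of which 13 lie outside the axes, and coloured points are the 34 genes by branch. ACLY stands at the upper right edge and ELOVL6 at lower right, and most others lie right of 0 in A549.

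The lines also differed in the levels of many of these genes, compared for the same gene through the cell line coefficient of the limma fit (A549 minus H441, 2 arrays a line). Of the 34 genes, 10 were called higher in A549, against 19% of all tested genes, and 12 higher in H441, against 52.8%. This split moved with the scaling: after quantile normalization 18 were called higher in A549 and 6 in H441, with 32.1% and 32.7% of all tested genes. Calls in the same direction under all 8 alternatives were 9 higher in A549 (ACLY, ACAT2, HMGCS1, IDI1, SQLE, EBP, SCD, FADS1 and FADS2) and 6 higher in H441 (ACSS2, TM7SF2, MSMO1, SC5D, INSIG1 and INSIG2). How many of all tested genes kept their call under all 8 was not counted, so these 2 counts have no background share. Whether the deposited arrays of the 2 lines were normalized together is not given in the sources used here.

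FADS2, the desaturase that starts polyunsaturated fatty acid synthesis, had 11.96 in A549 and 8.44 in H441 with siTAZ, and 11.73 in A549 and 8.26 in H441 with siNTC, a difference of 3.50 ± 0.12 (limma SE) or 11.3-fold. Its neighbour in the pathway FADS1 had 11.21 in A549 and 9.42 in H441 with siTAZ, and 11.18 in A549 and 9.61 in H441 with siNTC, 3.22-fold higher in A549. In the other direction, INSIG2 had 8.03 in A549 and 9.80 in H441 with siTAZ, and 7.91 in A549 and 9.76 in H441 with siNTC, 3.52-fold higher in H441, and SC5D was 2.48-fold and TM7SF2 2.29-fold higher there. In each of these 5 genes the gap between the lines was larger than either difference between siTAZ and siNTC, and the limma adjusted p was at most 2.9e-09. ACLY was 1.83-fold higher in A549 (limma adjusted p = 7.4e-07). These folds are for the values as deposited and moved with the scaling. Over the 4 scalings the log2 difference ran from -1.81 to -1.42 for INSIG2, -1.31 to -0.92 for SC5D and -1.20 to -0.84 for TM7SF2. It ran from 3.50 to 3.89 for FADS2, 1.69 to 2.08 for FADS1 and 0.88 to 1.27 for ACLY.

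**Figure D4:**
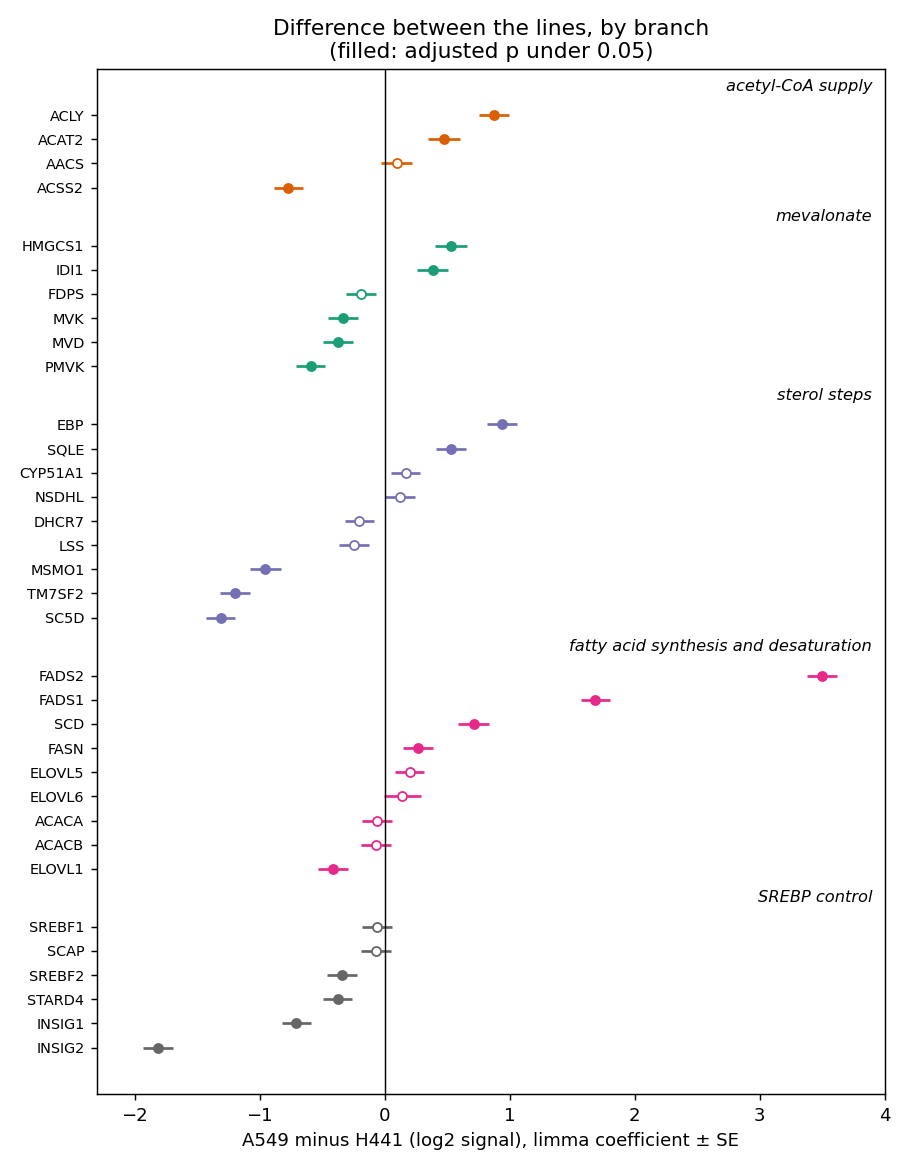
A549 minus H441 (x axis, log2 signal) for the 34 genes by branch, as the limma coefficient with its SE over 4 arrays. Filled points have an adjusted p under 0.05. FADS2 lies at 3.50 and INSIG2 at -1.81.

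Of 61 genes from neighbouring lipid pathways, 54 had a single-symbol probe set and 53 were tested, with 1 call higher and 1 lower over both lines, against 1.19% of all tested genes called higher and 1.29% called lower. ERLIN1, a cholesterol-binding protein of the endoplasmic reticulum that restrains SREBP activation, had 9.64 with siTAZ and 10.36 with siNTC in A549, and 9.35 with siTAZ and 10.22 with siNTC in H441. It fell by 0.80 (limma SE 0.12, limma adjusted p = 0.0003), with both siTAZ values below both siNTC values. MYLIP, the sterol-induced ubiquitin ligase that removes lipoprotein receptors, had 8.14 with siTAZ and 7.56 with siNTC in A549, and 8.74 with siTAZ and 8.44 with siNTC in H441. MYLIP rose by 0.45 ± 0.12 (limma SE, limma adjusted p = 0.046), a call lost under 6 of the 8 alternatives with cell line in the fit (adjusted p up to 0.16). Its list, sterol transport and esterification, did not move as one. There 5 of 9 genes were higher in both lines and 2 of 9 lower in both, with medians of 0.07 (A549) and 0.01 (H441).

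The remaining 5 lists had 0 calls, and each is given by its median over measured genes. Of the non-sterol isoprenoid branch, 3 of 9 genes were higher in A549 and 6 of 9 in H441 (medians -0.04 in A549 and 0.03 in H441). PGGT1B, a prenyltransferase subunit, had -0.36 (A549) and -0.29 (H441), and PDSS1, which makes the side chain of ubiquinone, -0.15 (A549) and 0.13 (H441). Citrate export and NADPH supply had medians of 0.03 (A549) and 0.06 (H441). IDH1, the cytosolic isocitrate dehydrogenase, had 0.48 (A549) and 0.0046 (H441), and MID1IP1 -0.22 (A549) and 0.18 (H441). Fatty acid activation and glycerolipid synthesis had medians of 0.16 (A549) and -0.04 (H441). The lipin gene LPIN2 had -0.20 (A549) and -0.43 (H441), and the acyl-CoA synthetase gene ACSL1 0.26 (A549) and 0.29 (H441).

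In fatty acid oxidation 6 of 8 genes were higher in A549 and 3 of 8 in H441, with medians of 0.20 (A549) and -0.08 (H441). CPT1A, the carnitine palmitoyltransferase that admits fatty acids to mitochondria, had 0.36 (A549) and 0.17 (H441), and ACADM, a dehydrogenase of medium-length chains, 0.39 (A549) and 0.04 (H441). Subunits of the AMP-activated kinase, which phosphorylates and inhibits acetyl-CoA carboxylase, had medians of -0.02 (A549) and -0.23 (H441), with 2 of 6 higher in A549 and 1 of 6 in H441. That 1 was PRKAA2, named after its values were seen, whose H441 signals of 4.85 with siTAZ and 4.75 with siNTC lay below the table median. Of the kinase's other subunit genes, the catalytic PRKAA1 had 0.23 (A549) and -0.19 (H441), and the regulatory PRKAG2 0.41 (A549) and -0.27 (H441). Over the 34 synthesis genes the medians were 0.21 (A549) and 0.07 (H441), against 0.05 (A549) and 0.0031 (H441) over the 54 neighbouring genes, of which 32 were higher in A549 and 28 in H441.

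**Figure D5:**
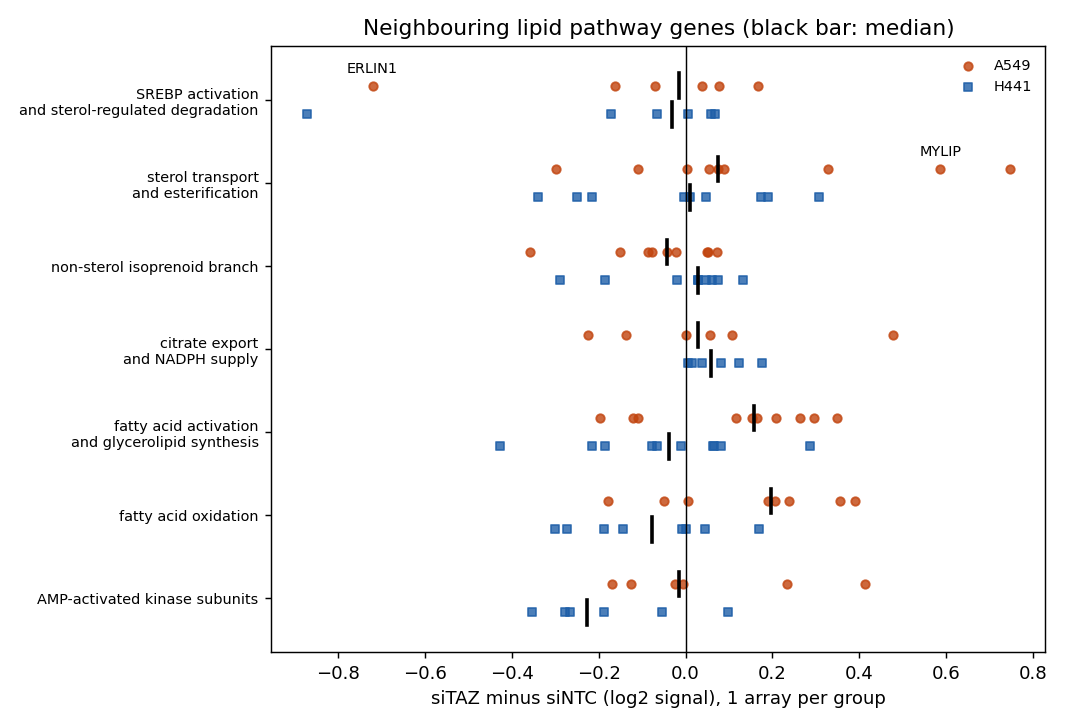
Difference between siTAZ and siNTC (x axis, log2 signal) for the 54 measured genes of 7 neighbouring lists. Circles are A549, squares H441, each point is 1 gene and black bars are medians. ERLIN1 lies at -0.72 and -0.87, and the medians lie between -0.23 and 0.20.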

How the data were processed

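Each array's deposited column holds log2 signals per probe set. RMA is named in the submitters' processing notes as what the authors ran, without a version, and the values themselves showed the log2 scale. Probe sets were named through the platform annotation, in which 19310 of 28869 have 1 gene symbol. The brightest probe set of a gene was used. Genes whose highest value reached the table median (6.13) were fitted with limma 3.58.1 in R 4.3.3 (lmFit, eBayes, two-sided), with siRNA and cell line as terms and Benjamini-Hochberg adjustment over all 12740 genes, called at adjusted p under 0.05. With 4 arrays 1 degree of freedom is left, beside 22.3 from the prior, so each SE draws mostly on the prior. Differences within a line rest on 1 array per group and have no test. 

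The lists and the tests, like the members, were chosen with earlier results of these data known. Named are all members, WWTR1, and from each neighbouring list the called genes or, without a call, the 2 with the largest mean absolute difference. On simulated arrays of the same 12740 genes, the fit recovered 39.5%, 95.5% and 100% of 200 genes changed by 0.4, 0.6 and 1 on the log2 scale, with 1, 4 and 15 false calls. The simulated noise was normal with the same spread for every gene, and each change was equal in both lines. Recovery on the real arrays may therefore differ. Promoter windows came from RefSeq. Alternatives changed the scaling, the filter, the use of probe sets, the prior or the cell line term.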

Additional observations from a re-analysis of the deposited data

Results flagged for a closer look

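ELOVL6 moved in opposite directions in the 2 lines, with siTAZ minus siNTC at 0.37 in A549 and -0.51 in H441, and PRKAG2 likewise at 0.41 and -0.27. Both were picked out because the signs differ and each difference is at least 0.2 in size. The difference between the lines was not tested in either gene, with 1 array per group.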

How the results depend on the processing

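The members called over both lines were 2 under median centring, the mean of probe sets and the filter on the mean, 3 under the stricter filter and with an intensity trend, 1 after quantile normalization, cyclic loess and without the filter (ACLY each time), and 0 without cell line in the fit. All genes called were 315 as deposited (2.47% of those tested), 146 after quantile normalization (1.15%) and 20 after cyclic loess (0.158%). They were 92 of 18377 without the filter (0.501%), 300 of 7198 under the stricter filter (4.17%) and 594 with an intensity trend (4.66%). The share was 3.16% under median centring, 2.36% with the mean of probe sets and 2.37% with the filter on the mean. Without cell line limma made 0 calls, and 11 genes had an unadjusted p under 0.05. Median centring split the calls into 123 higher and 277 lower, against 151 and 164. It turned the H441 median of the list to -0.0141 (0.07 as deposited) and the mean differences of MVK to -0.0280, FASN to -0.0145, ELOVL1 to -0.00072 and SCAP to -0.0382, 0 of which are called; its construction lowers every H441 difference alike. For the changed counts of calls the cause was not tested. The fit with cell line as a term pairs the siTAZ and siNTC array of each line; the fit without it is the unpaired one. Of the list ACACB was nearest to the dim end, at 6.06 to 6.22 against a table median of 6.13. The stricter filter (7.97) left ACACB untested.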
